A study of Homo sapiens with 15 samples.

Results

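The genes described here are the D cyclins (CCND1, CCND2 and CCND3), the CIP/KIP inhibitors of cyclin-dependent kinases (CDKN1A, CDKN1B and CDKN1C), 3 inhibitors of the INK4 type (CDKN2B, CDKN2C and CDKN2D) and the retinoblastoma gene RB1. They were taken by name, as the rows of both deposited count tables whose Ensembl identifiers map to these symbols, and they make up 10 of 62700 gene rows. Of these, 9 had at least 1 read and passed the filter on low counts in both tables, and CDKN2B had no read in any library.

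D cyclins are made in response to growth factors and activate the kinases CDK4 and CDK6, which phosphorylate the RB1 protein and release the E2F transcription factors that drive the genes of DNA replication. INK4 proteins bind CDK4 and CDK6 and keep D cyclins off them. CIP/KIP proteins block the cyclin E and cyclin A complexes of CDK2, can also help D cyclins and their kinases assemble, and are held down by ubiquitin ligases such as the one that uses SKP2. The balance between these arms sets entry into the cell cycle and exit from it, and it is often altered in bone tumours.

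The study sequenced RNA of 143B, a human osteosarcoma cell line, in 5 conditions with 3 libraries each. The OSC libraries came from cells grown as tumorspheres in serum-free medium with EGF and basic FGF, which the study uses as osteosarcoma stem cells, and the non-OSC libraries from adherent cells in DMEM with serum. Both carry the genotype label WT. The other 9 libraries came from 143B tumorspheres infected with lentivirus. It carried either a control (shCtrl, also labelled WT) or a short hairpin against PDK1 (shPDK1#1 or shPDK1#2), the kinase that restrains pyruvate dehydrogenase. The study's plasmid list names no control hairpin, so whether shCtrl carries a hairpin is not known here. All groups are 1 cell line, and format, medium and serum change together between OSC and non-OSC, so that these cannot be told apart. No label ties a library to a culture of its own, so the p-values measure the spread between these libraries, which may be technical.

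The libraries held 7992499 to 11256536 counts. Of the markers of bone-forming cells, COL1A1 (390 to 1388 CPM), SPARC (544 to 1567 CPM) and RUNX2 (14.4 to 38.5 CPM) were present in every library. In contrast, SP7, IBSP and BGLAP had 0 to 7 counts, COL1A2 had 0 to 16 and ALPL had 8 to 28. PTPRC, PECAM1 and VWF, which mark immune and endothelial cells, had 0 to 15 counts. Of the epithelial markers, EPCAM had 8 to 44 counts, but KRT8 had 182 to 1281 and KRT18 had 2217 to 10056. Levels are given as CPM, which scales each library's counts to a common total, after TMM scaling, and levels of different genes are compared only per kilobase of the canonical transcript. The culture table and the hairpin table were scaled separately, and no level was compared between them.

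PDK1 itself was read first as a check of the hairpins. It was 46.7, 44.7 and 44.4 CPM in shCtrl, 29.0, 27.9 and 27.3 CPM in shPDK1#1 and 18.3, 21.5 and 19.6 CPM in shPDK1#2. The mean was 62.0% of shCtrl with shPDK1#1 and 43.7% with shPDK1#2, and the 3 groups did not overlap. In the culture table it was 45.4, 51.6 and 42.9 CPM in non-OSC and 73.6, 69.9 and 67.5 CPM in OSC.

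In OSCs most of the inhibitors were higher, and the D cyclins changed less. CDKN1A, the p21 inhibitor, rose 5.43-fold, CDKN2D, the p19 INK4 inhibitor, rose by 1.72 on the log2 scale, and CDKN1B (p27), CDKN1C (p57), RB1 and CCND2 also rose, whereas CCND3 fell. At a threshold of 0.05 on the adjusted p (edgeR, quasi-likelihood test; Benjamini-Hochberg over 14287 genes), 7 of the 9 tested members differed, 6 of them higher and 1 lower. Of all genes tested 63.9% passed the same threshold, 32.4% as higher and 31.5% as lower. Most genes at large thus differed as well. The median log2 fold change was 0.53 over the members tested and -0.01 over all genes. As these are bulk samples, fewer cells of a type and less RNA per cell cannot be told apart.

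**Figure D1:**
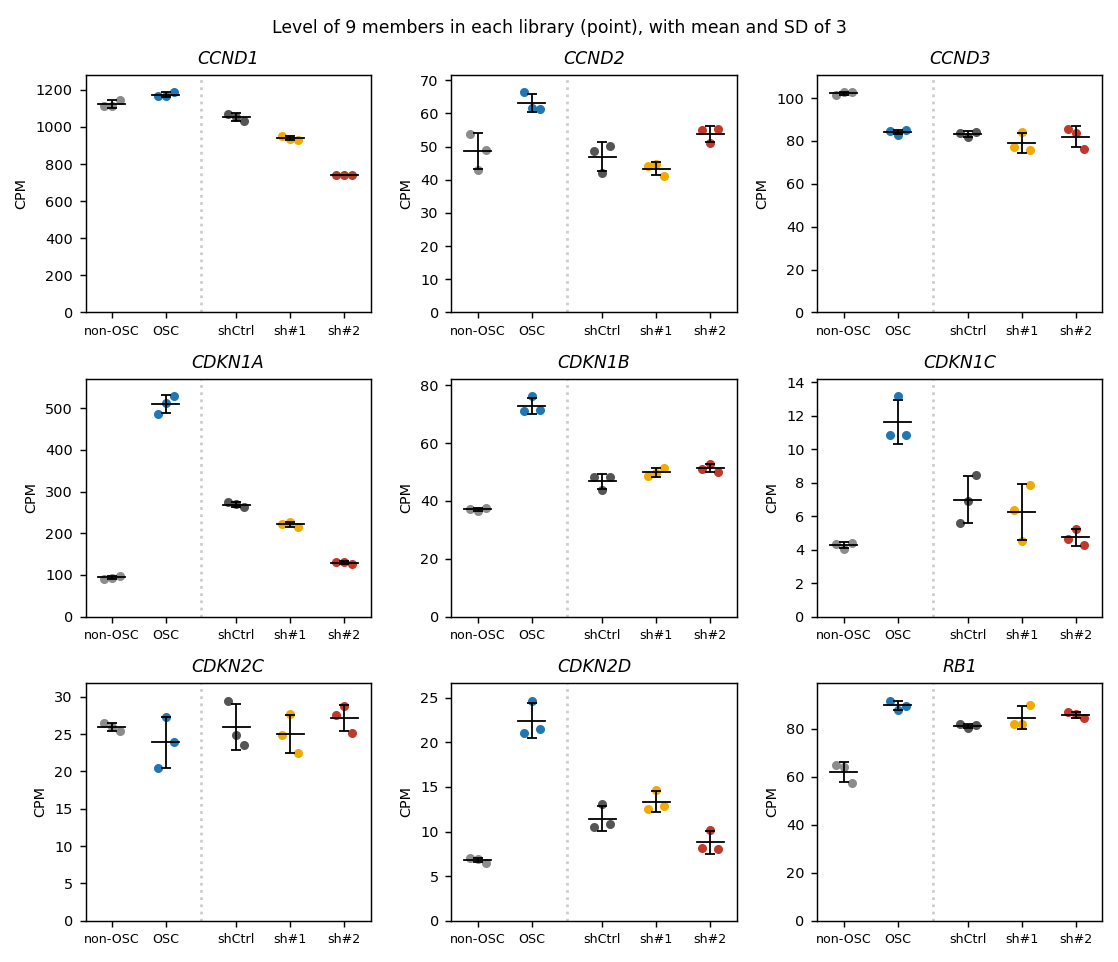
Level of each of the 9 detected members (vertical axis, CPM, from 0) in the 5 conditions (horizontal axis; sh#1 and sh#2 are shPDK1#1 and shPDK1#2), with 1 point per library, a line at the mean and a bar of 1 SD (n = 3). The dotted line parts the 2 separately scaled tables; CDKN1A rises from 90.2 to 98.4 CPM in non-OSC to 486 to 528 CPM in OSC, and falls from shCtrl to shPDK1#1 to shPDK1#2.

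The D cyclins bring growth signals to CDK4 and CDK6. CCND1 (chr11:69641156-69654474, GRCh38, + strand) was 1111, 1114 and 1148 CPM in non-OSC and 1166, 1168 and 1187 CPM in OSC. All OSC libraries lay above all non-OSC libraries, but the log2 fold change was only 0.06 (SE 0.035, 95% interval -0.01 to 0.14) and did not pass (adjusted p = 0.127). It passed when libraries were scaled by total count alone, at 0.10 (adjusted p = 0.0125), and with a replicate block (adjusted p = 0.0245).

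CCND2 (chr12:4269771-4305353, + strand) was 53.8, 43.0 and 49.0 CPM in non-OSC and 66.4, 61.6 and 61.4 CPM in OSC. The groups did not overlap, as was so for 8 of the 9 members and for 66.9% of all genes tested, and the log2 fold change was 0.37 (SE 0.083, adjusted p = 0.000487). An unnamed gene on the same strand, ENSG00000285901, overlaps 12.5% of the CCND2 exon sequence, so the split of reads between them is uncertain. That gene had a mean of 10.95 CPM in non-OSC and 7.51 CPM in OSC.

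CCND3 (chr6:41934934-42050357, - strand) moved the other way. It was 101, 103 and 103 CPM in non-OSC and 84.6, 83.0 and 84.9 CPM in OSC, with no overlap. The log2 fold change was -0.28 (SE 0.059, adjusted p = 0.000253), so that within the family CCND2 rose, CCND3 fell and CCND1 did not pass.

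Of the CIP/KIP inhibitors, CDKN1A (chr6:36676460-36687337, + strand) showed the largest difference of any member. It was 90.2, 92.9 and 98.4 CPM in non-OSC and 486, 513 and 528 CPM in OSC. The log2 fold change was 2.44 (SE 0.052, adjusted p = 9.45e-20), and 226 of the 14287 genes tested had a value at least as high. The antisense gene DINOL, which lies opposite 4.87% of the CDKN1A exon sequence, had 0 to 1 counts in these libraries.

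CDKN1B (chr12:12685498-12722369, + strand), whose protein holds CDK2 in check in resting cells, was 37.1, 36.6 and 37.7 CPM in non-OSC and 71.2, 76.2 and 71.5 CPM in OSC. The log2 fold change was 0.98 (SE 0.074, adjusted p = 1.57e-10). CDKN1C (chr11:2883213-2885775, - strand), an imprinted inhibitor of the same family, was low, at 4.34, 4.05 and 4.41 CPM in non-OSC and 10.8, 13.2 and 10.9 CPM in OSC. With 37 to 45 counts per non-OSC library its log2 fold change of 1.45 had the widest standard error of the 3 (0.178, adjusted p = 3.53e-07). All 3 members of the family thus rose, and in none did the groups overlap.

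Of the INK4 inhibitors, CDKN2D (chr19:10566460-10569059, - strand) was 7.04, 6.90 and 6.50 CPM in non-OSC and 21.1, 24.7 and 21.5 CPM in OSC (SE 0.136, adjusted p = 3.26e-10). CDKN2C, the p18 inhibitor (chr1:50960745-50974634, + strand), was 26.5, 25.9 and 25.5 CPM in non-OSC and 20.5, 27.3 and 23.9 CPM in OSC. These libraries overlapped, and the log2 fold change of -0.11 (95% interval -0.34 to 0.11) did not pass (adjusted p = 0.371). CDKN2D thus rose and CDKN2C gave no call. Both proteins bind CDK4 and CDK6.

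CDKN2B, the p15 inhibitor (chr9:22002903-22009305, - strand), had 0 counts in all 15 libraries. A count of 0 puts an approximate 95% upper bound of 3 on the expected count, or 0.267 to 0.375 CPM depending on the library. This bound covers counting error only. Of 3 neighbouring genes, chosen after their values were seen, CDKN2B-AS1 and MTAP also had 0 counts in all 15 libraries, whereas DMRTA1 had 28 to 126 counts. The cause of the empty rows was not tested.

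RB1 (chr13:48303744-48599436, + strand), whose product the D cyclin kinases inactivate, was 64.8, 63.9 and 57.4 CPM in non-OSC and 91.8, 88.0 and 89.4 CPM in OSC. All OSC libraries were higher, with a log2 fold change of 0.53 (SE 0.067, adjusted p = 5.38e-07).

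Of the inhibitors that rose in OSCs, 3 have an entry in the RefSeq promoter table. They did not move together with the hairpins, where CDKN1A fell and CDKN1B and CDKN2D did not pass against shCtrl. The promoters of these 3 genes are shown. Each runs from 250 bases before the annotated start to 50 bases after it, 5′ to 3′ on the gene's strand (GRCh38.p14), and capitals mark matches on either strand to the searched motifs.
CDKN1A, chr6:36678464-36678763, + strand: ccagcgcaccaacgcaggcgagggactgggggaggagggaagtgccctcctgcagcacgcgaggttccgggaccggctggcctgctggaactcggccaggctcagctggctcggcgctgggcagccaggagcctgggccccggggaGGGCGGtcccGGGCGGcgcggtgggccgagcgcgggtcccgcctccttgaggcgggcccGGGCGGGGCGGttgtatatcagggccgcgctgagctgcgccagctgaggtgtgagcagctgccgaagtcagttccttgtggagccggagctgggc
CDKN1B, chr12:12717118-12717417, + strand: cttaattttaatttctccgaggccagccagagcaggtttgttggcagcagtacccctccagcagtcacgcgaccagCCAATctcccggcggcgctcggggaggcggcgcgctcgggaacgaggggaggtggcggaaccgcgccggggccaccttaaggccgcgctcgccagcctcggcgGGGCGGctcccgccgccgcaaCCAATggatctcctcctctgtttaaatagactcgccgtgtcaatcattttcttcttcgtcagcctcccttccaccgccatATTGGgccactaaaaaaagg
CDKN2D, chr19:10568930-10569229, - strand: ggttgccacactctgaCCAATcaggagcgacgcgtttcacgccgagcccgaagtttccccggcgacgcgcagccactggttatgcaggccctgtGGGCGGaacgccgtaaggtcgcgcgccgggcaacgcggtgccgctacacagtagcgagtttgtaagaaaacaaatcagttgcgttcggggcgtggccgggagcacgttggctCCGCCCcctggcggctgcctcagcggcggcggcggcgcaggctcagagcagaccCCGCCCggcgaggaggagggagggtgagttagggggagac
The CDKN1A window held 4 GC boxes (GGGCGG), of which 2 overlap each other, and had a GC content of 74.3%. The CDKN1B window held 1 GC box and 3 CCAAT boxes (CCAAT) at 62.3% GC, and the CDKN2D window held 3 GC boxes and 1 CCAAT box at 68% GC. A GC box stood in 45% and a CCAAT box in 34.6% of all 35116 promoters in the table, whose median GC content was 58.7%. None of the 3 windows held a TATA box (TATAAA, in 11.5% of promoters), the E2F motifs TTTCGCGC (0.515%) or TTTGGCGC (0.652%), an E-box (CACGTG, 7.26%), an AP-1 motif (TGANTCA, 7.71%) or a CRE (TGACGTCA, 1.85%, or its shorter form TGACGT, 7.98%). These are matches of letters and not measured binding sites, and a GC box is common to all 3 windows as it is to many others.

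With PDK1 knocked down in tumorspheres, CCND1 and CDKN1A were lower with both hairpins, and more so with shPDK1#2. Both comparisons use the same 3 shCtrl libraries, so they are not independent of each other. With shPDK1#1, 2 of the 9 tested members differed, both lower, where 3.06% of 14574 genes passed 1.62% as higher and 1.44% as lower. With shPDK1#2, 2 of 9 differed, both lower, where 26.2% of genes passed 12% as higher and 14.2% as lower. The share of members called with shPDK1#2 is thus close to that of genes at large. The libraries did not overlap with shCtrl for 3 of 9 members with shPDK1#1 and 7 of 9 with shPDK1#2, as was so for 19.3% and 39.5% of all genes tested. The members' median log2 fold change was -0.07 with shPDK1#1 and -0.02 with shPDK1#2, beside 0.00 and 0.01 over all genes.

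CCND1 was 1072, 1054 and 1031 CPM in shCtrl, 953, 934 and 932 CPM in shPDK1#1 and 740.4, 739 and 742 CPM in shPDK1#2. No library of 1 group reached into another. With shPDK1#1 the mean was 89.3% of that in shCtrl (log2 fold change -0.16, SE 0.032, adjusted p = 0.00313) and with shPDK1#2 it was 70.4% (-0.51, SE 0.032, adjusted p = 4.28e-12). LTO1, which lies opposite 10.4% of the CCND1 exon sequence, went from 28.4 ± 1.36 CPM (SD, n = 3) in shCtrl to 21.8 ± 1.72 CPM with shPDK1#2, and strand-specific counting is not stated in the sources used here, so reads in that stretch cannot be told apart.

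CDKN1A was 274, 269.9 and 262 CPM in shCtrl, 222, 227 and 215 CPM in shPDK1#1 and 132, 131 and 125 CPM in shPDK1#2. Again the 3 groups did not overlap. The mean of shPDK1#1 was 82.3% of the shCtrl mean (log2 fold change -0.28, SE 0.043, adjusted p = 0.000171) and that of shPDK1#2 was 48.1% (-1.06, SE 0.045, adjusted p = 3.05e-15). With shPDK1#2, 199 of the 14574 genes tested had a log2 fold change as low or lower.

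The other CIP/KIP inhibitors did not pass with either hairpin. CDKN1B was 48.2, 43.8 and 48.2 CPM in shCtrl, 48.5, 49.6 and 51.5 CPM in shPDK1#1 and 51.2, 52.7 and 49.9 CPM in shPDK1#2. Both hairpin groups lay just above shCtrl, with log2 fold changes of 0.10 (95% interval -0.05 to 0.25) and 0.14 (-0.01 to 0.28). CDKN1C was 5.59, 6.93 and 8.45 CPM in shCtrl, 6.34, 4.50 and 7.86 CPM in shPDK1#1 and 4.66, 5.26 and 4.27 CPM in shPDK1#2. Its libraries overlapped between shCtrl and shPDK1#1, while with shPDK1#2 all 3 were below shCtrl at -0.56 (SE 0.22, adjusted p = 0.0637).

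CDKN2D was 10.5, 13.1 and 10.8 CPM in shCtrl, 12.6, 14.7 and 12.9 CPM in shPDK1#1 and 8.10, 10.2 and 8.02 CPM in shPDK1#2. The log2 fold change was 0.22 with shPDK1#1 (95% interval -0.07 to 0.51) and -0.39 with shPDK1#2 (SE 0.148, adjusted p = 0.0537). CCND2 also missed the threshold with shPDK1#2, at 48.6, 42.0 and 50.2 CPM in shCtrl, 44.3, 44.6 and 41.2 CPM in shPDK1#1 and 54.9, 51.2 and 55.4 CPM in shPDK1#2 (0.20, SE 0.076, adjusted p = 0.0507). These 3 near misses with shPDK1#2 passed under some other settings, CCND2 under 5 of 12 and CDKN1C and CDKN2D under 3 of 12 each.

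CCND3, CDKN2C and RB1 gave no call with either hairpin. CCND3 was 81.6 to 84.1 CPM in shCtrl, 75.7 to 84.2 CPM in shPDK1#1 and 76.5 to 85.8 CPM in shPDK1#2, and CDKN2C was 23.6 to 29.5, 22.5 to 27.6 and 25.2 to 28.7 CPM. RB1 was 80.2 to 81.9, 81.9 to 90.0 and 84.5 to 87.0 CPM. Their 95% intervals bound the difference from shCtrl to between -0.28 and 0.27 on the log2 scale for both hairpins.

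The hairpins were also compared with each other. Between shPDK1#2 and shPDK1#1, 4 of 9 members differed, 1 higher and 3 lower, where 16.3% of 14574 genes passed, 6.5% as higher and 9.78% as lower. CDKN1A (log2 difference -0.77, SE 0.045, adjusted p = 1.61e-12), CCND1 (-0.34, SE 0.032, adjusted p = 1.31e-08) and CDKN2D (-0.61, SE 0.145, adjusted p = 0.00401) were lower with shPDK1#2, and CCND2 was higher (0.32, SE 0.077, adjusted p = 0.00463). ENSG00000285901, which shares exon sequence with CCND2, had its highest mean in the same group, at 7.67 ± 2.28 CPM in shCtrl, 7.17 ± 0.798 CPM in shPDK1#1 and 10.1 ± 1.47 CPM in shPDK1#2, and its part in the CCND2 difference was not tested. Libraries of the 2 hairpins did not overlap for 4 of 9 members and for 30.7% of all genes. PDK1 was itself lower with shPDK1#2 than with shPDK1#1 (-0.50, adjusted p = 0.00024).

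**Figure D2:**
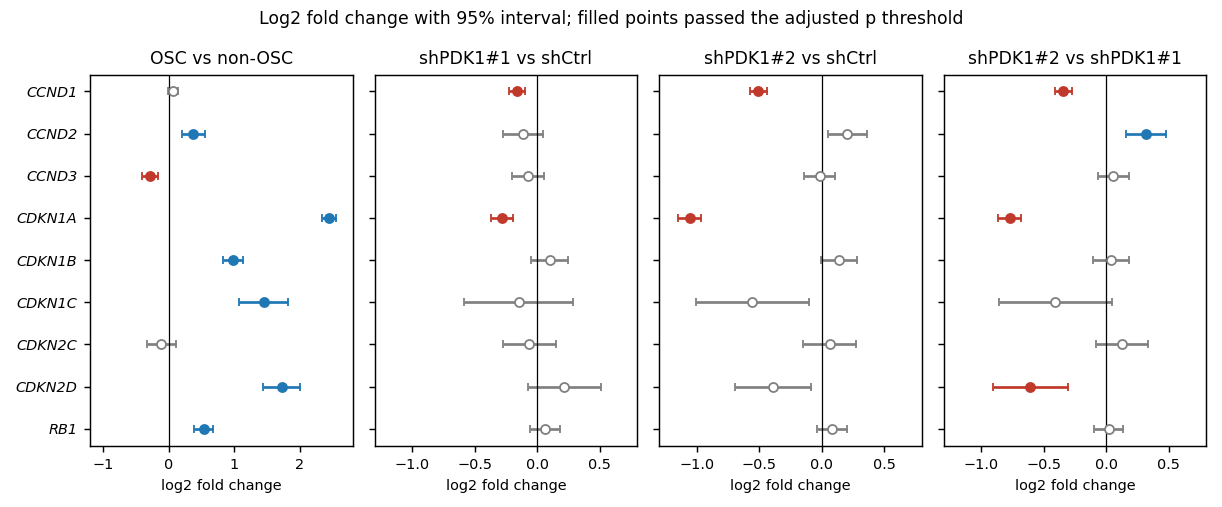
Log2 fold change (horizontal axis) of the 9 tested members in the 4 comparisons, 1 panel each, with 95% intervals derived from the edgeR test. Filled blue and red points passed the adjusted p threshold of 0.05 as higher and lower, open points did not. CDKN1A stands at 2.44 in OSC against non-OSC and at -0.28 and -1.06 in shPDK1#1 and shPDK1#2 against shCtrl; the first panel has a wider axis than the others.

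Levels per kilobase set the members beside each other within a condition. CCND1 was highest in all 5, at 265 ± 4.79 CPM per kb (SD, n = 3) in non-OSC, 277 ± 2.77 in OSC, 248 ± 4.86 in shCtrl, 222 ± 2.82 in shPDK1#1 and 175 ± 0.425 in shPDK1#2. CDKN1A ranked below CCND3 in non-OSC, at 44.3 ± 1.98 against 50.5 ± 0.368 CPM per kb, and next to CCND1 in OSC, at 240.5 ± 10.1. It held that rank in the hairpin libraries, at 127 ± 3.03 in shCtrl, 104 ± 2.86 in shPDK1#1 and 61.0 ± 1.69 in shPDK1#2. CDKN1C was the lowest detected member in every condition, at 2.41 to 6.56 CPM per kb. Neighbours in this order overlapped between libraries in 1 case, CDKN2D and CCND2 in shCtrl. The order of the members between CCND1 and CDKN1C depends on the length used. With the length of all exons merged, CDKN1A stood above CCND3 also in non-OSC, at 31.3 against 17.8 CPM per kb, while CCND1 stayed highest and CDKN1C the lowest detected in all 5 conditions.

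The ratio of CDKN1A to CCND1 per kb was 0.162 to 0.172 in non-OSC and 0.835 to 0.891 in OSC. In the hairpin table it was 0.508 to 0.513 in shCtrl, 0.461 to 0.486 in shPDK1#1 and 0.338 to 0.356 in shPDK1#2. The 3 CIP/KIP inhibitors summed, over the 3 D cyclins summed, gave 0.192 ± 0.00392 (SD, n = 3) in non-OSC, 0.845 ± 0.0291 in OSC, 0.507 ± 0.000556 in shCtrl, 0.481 ± 0.00402 in shPDK1#1 and 0.380 ± 0.00827 in shPDK1#2. So within each table this mRNA ratio moved with CDKN1A, which made up 71.3% of the CIP/KIP sum in non-OSC, 86.7% in OSC, 84.5% in shCtrl, 81.2% in shPDK1#1 and 71.8% in shPDK1#2. CCND1 made up 82.1%, 84.4%, 83.7%, 82.9% and 78.2% of the D cyclin sum in the same order. With merged exon length the CIP/KIP ratio was 0.142, 0.678, 0.404, 0.377 and 0.287.

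**Figure D3:**
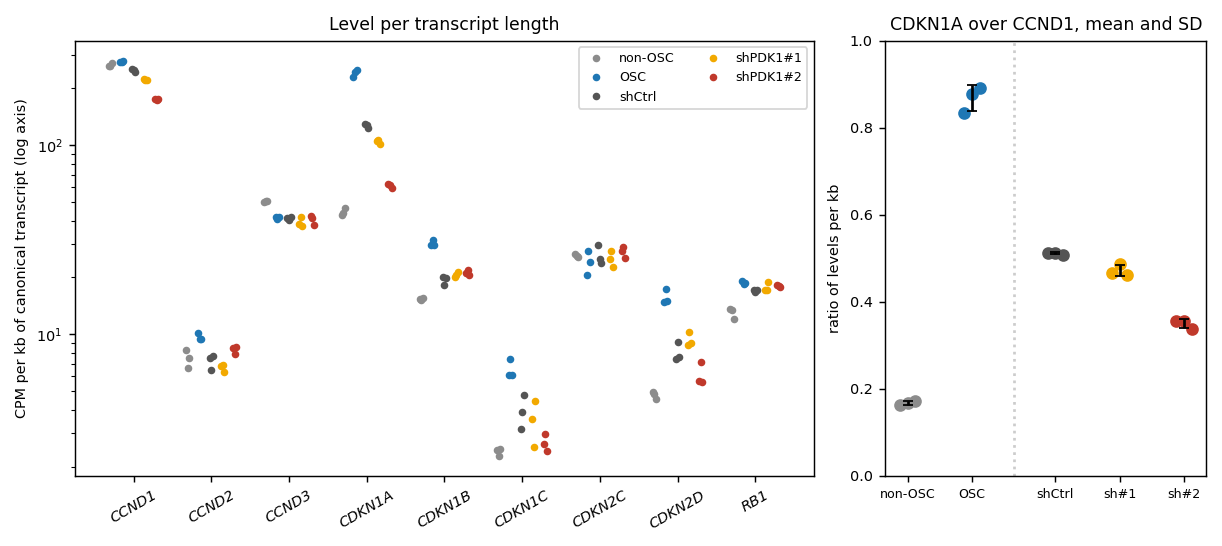
Left, level of the 9 detected members in CPM per kb of canonical transcript (log axis), 1 point per library, coloured by condition; right, ratio of CDKN1A to CCND1 per kb (linear axis from 0), with mean and SD (n = 3). CCND1 tops every condition, and the ratio is 0.162 to 0.172 in non-OSC, 0.835 to 0.891 in OSC and falls from shCtrl to shPDK1#2; the dotted line parts the 2 tables.

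The kinases and E2F factors on which these genes act were mostly lower in OSCs. Of 18 RB pathway partners tested, 12 were lower, 3 were higher and 3 did not pass, where 63.9% of all genes passed, with a median log2 fold change of -0.71. CDK4, at 169, 169 and 170.2 CPM in non-OSC and 97.8, 96.1 and 102 CPM in OSC, fell by 0.78, and CDK6 fell by 0.77. Cyclins E1 and E2, the partners of CDK2, fell by 0.70 and 0.72, and E2F1 fell by 0.81, whereas CDK2 itself (-0.14, 95% interval -0.29 to 0.01) and the RB1 relative RBL1 (-0.07) did not pass. The largest fall was that of E2F2 (-1.37, SE 0.164) and the largest rise that of E2F7 (1.11, SE 0.052). Of the other E2F genes, named after their values were seen, E2F8 (-1.06), E2F4 (-0.90) and E2F3 (-0.34) were also lower. E2F5 (0.46) was higher and E2F6 did not pass. RBL2, the RB1 relative linked to quiescence, rose by 0.42. Per kb, the D cyclins summed over CDK4 and CDK6 summed went from 2.96 ± 0.0614 in non-OSC to 5.15 ± 0.108 in OSC.

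With shPDK1#1, 3 of the 18 partners passed, where 3.06% of all genes did, and with shPDK1#2 4 of 18, where 26.2% did. The 2 counts were not tested against each other or against that in OSCs. With shPDK1#1, E2F2 (-0.53, adjusted p = 0.0276), E2F3 (-0.52, adjusted p = 0.000146) and CDK6 (-0.19, adjusted p = 0.0491) were lower and none of the 18 was higher. The calls of E2F2 and CDK6 depended on the settings. E2F2 was lost with DESeq2 (adjusted p = 0.0515), which called 2 of the 18, and without shCtrl replicate 1 or 2 or shPDK1#1 replicate 2 or 3, where its adjusted p reached 0.175. CDK6 was called by DESeq2 (adjusted p = 0.0406) and lost when any 1 of the 6 libraries of these groups was left out (adjusted p up to 0.254). With shPDK1#2, the CDK phosphatase CDC25A (0.71) and CDK4 (0.28) were higher, and E2F3 (-1.04) and E2F7 (-0.40) were lower. E2F3, an activator, was 63.6, 60.6 and 70.2 CPM in shCtrl, 44.8, 49.1 and 41.9 CPM in shPDK1#1 and 32.5, 32.0 and 29.9 CPM in shPDK1#2, with no overlap between any 2 groups. CDK2, CCNE1, CCNE2, RBL1, RBL2 and E2F1 passed with neither hairpin. CCNE2 came nearest, at -0.48 with shPDK1#1 (adjusted p = 0.0505). Between the hairpins, where 16.3% of all genes passed, 5 of 18 were higher and 2 lower with shPDK1#2. E2F2 had the largest rise (0.67) and E2F3 the largest fall (-0.52). Per kb, the D cyclins summed over CDK4 and CDK6 summed were 4.04 ± 0.107 in shCtrl, 3.44 ± 0.0578 in shPDK1#1 and 2.58 ± 0.105 in shPDK1#2 (SD, n = 3). This ratio was lower with each hairpin, without overlap between the groups, whereas it was higher in OSC than in non-OSC. From shCtrl to shPDK1#1 to shPDK1#2 the D cyclin sum was 297, 267 and 223 CPM per kb, and CDK4 plus CDK6 was 73.5, 77.8 and 86.6.

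Among 16 genes for the turnover of D cyclins and CIP/KIP proteins, 4 were higher and 8 lower in OSCs (median -0.26). Of all genes tested 63.9% passed, 32.4% as higher and 31.5% as lower. SKP2, the ubiquitin ligase subunit that marks p27 for degradation, was 63.5, 62.6 and 63.9 CPM in non-OSC and 17.0, 14.97 and 16.3 CPM in OSC, a log2 fold change of -1.98 (SE 0.089, adjusted p = 2.72e-14). FBXW7, a subunit for cyclin E, had the largest rise (0.56, SE 0.11). With shPDK1#2, SKP2 rose from 23.5, 25.4 and 20.7 CPM in shCtrl to 41.8, 44.6 and 48.4 CPM (0.95, SE 0.090, adjusted p = 9.56e-09). In all, 3 of 16 were higher, 2 with DESeq2, where edgeR called 26.2% of all genes, 12% as higher. In shPDK1#1 SKP2 was 28.4, 25.9 and 27.0 CPM, above every shCtrl library, at 0.21 (adjusted p = 0.298). With that hairpin, where 3.06% of all genes passed, edgeR called 0 of 16 and DESeq2 0 of 16, and 1 of 16 had an unadjusted p under 0.05. Between the hairpins SKP2 was 0.73 higher with shPDK1#2, 1 of 2 genes called of the 16, both higher, where 16.3% of all genes passed.

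Among 18 genes of S phase and mitosis, 16 were lower in OSCs, where 63.9% of all genes passed, 31.5% as lower. None of the 18 was higher, and TOP2A and CDK1 did not pass (median -0.66). MCM3, of the replicative helicase, fell most, from 302, 309 and 319.6 CPM to 120.5, 122 and 119 CPM (-1.36, SE 0.049). MKI67, the proliferation marker, went from 687, 644 and 686 CPM to 379, 362 and 362 CPM (-0.87, SE 0.043). With shPDK1#2, 7 were higher and 5 lower, where 26.2% of all genes passed, 12% as higher and 14.2% as lower. The 7 and the 5 were named after their values were seen. The 7 were PCNA and MCM2 to MCM7, with MCM2 the largest rise (0.58). Of these, MCM7 (0.11, adjusted p = 0.0366) was called under 5 of 12 other settings. The 5 were CCNA2, RRM2 (-0.22), PLK1 (-0.18), FOXM1 (-0.16) and MKI67. The largest fall was that of CCNA2 (-0.27), the cyclin of S phase and early mitosis. MKI67 was 570 to 576 CPM in shCtrl and 496 to 533 CPM in shPDK1#2 (-0.14, adjusted p = 0.00451). With shPDK1#1, where 3.06% of all genes passed, edgeR and DESeq2 each called 0 of 18, and 3 of 18 had an unadjusted p under 0.05. Between the hairpins, where 16.3% of all genes passed, 8 of 18 were higher with shPDK1#2, led by MCM2 (0.50). The 2 that were lower were led by PLK1 (-0.17).

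**Figure D4:**
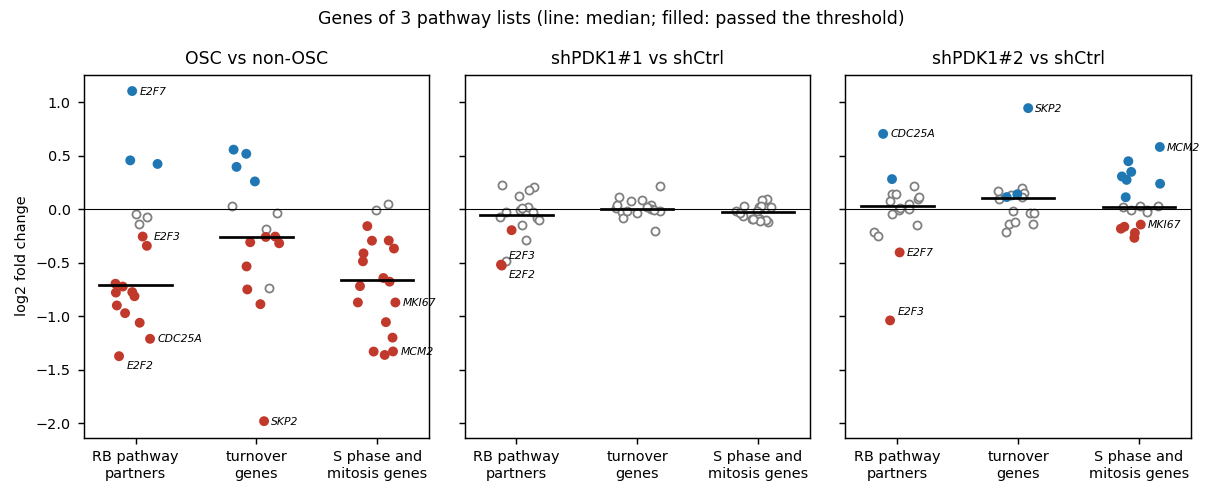
Log2 fold change (vertical axis) of each gene in the 3 pathway lists (horizontal axis, 18, 16 and 18 genes), in 3 comparisons, 1 panel each; filled blue and red points passed the adjusted p threshold of 0.05 as higher and lower, open points did not, and black lines are medians. The medians lie at -0.71, -0.26 and -0.66 in OSC against non-OSC and near 0 with the hairpins, where SKP2 (0.95) and E2F3 (-1.04) stand apart with shPDK1#2.

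Other readouts moved with the same groups. The summed level of 6 markers of other cell types was 1098 to 1228 CPM in non-OSC, 293 to 303 CPM in OSC, 330.1 to 356 CPM in shCtrl, 380.0 to 398 CPM in shPDK1#1 and 437 to 476 CPM in shPDK1#2. KRT18, an epithelial marker, made up most of it, and the immune and endothelial markers were at or near 0. The summed level of 8 bone-forming markers was 976 to 1052 CPM in non-OSC, 1972 to 2066 CPM in OSC, 2191 to 2272 CPM in shCtrl, 2349.9 to 2449 CPM in shPDK1#1 and 2813 to 2953 CPM in shPDK1#2, with IBSP at 0 throughout. The collagen gene COL1A1 and SPARC carried that sum, and its members did not all move in 1 direction. Of the 4 tested between OSC and non-OSC, COL1A1 and SPARC were higher, RUNX2, the transcription factor of the bone-forming lineage, was lower (37.7 ± 0.945 CPM in non-OSC and 17.3 ± 2.78 CPM in OSC), ALPL did not pass (2.66 ± 0.379 and 1.49 ± 0.683 CPM), and the median log2 fold change was -0.04. COL1A2 was too low to be tested, at 7 to 10 counts per library in non-OSC and 0 to 1 in OSC. Their part in the differences of the members was not tested.

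For 1 member of each family the genes with the most similar profile were sought by Pearson's r over all 15 libraries, on log2 CPM centred within each table, among 9850 genes. CDKN1A was followed most closely by PTPRN, COL7A1 and KLF13 (r = 0.998, 0.998 and 0.997). COL7A1, a collagen of anchoring fibrils, had log2 fold changes of 2.36 in OSC, -0.29 with shPDK1#1 and -1.10 with shPDK1#2, beside 2.44, -0.28 and -1.06 for CDKN1A. CCND1 was followed by DPYSL5, SYNJ2 and EZR (r = 0.976, 0.963 and 0.963) and RB1 by NUCB2, ATP7A and RAB30 (r = 0.983, 0.974 and 0.973). CDKN2B could not be compared. The points share libraries and 5 group means, so a high r can follow from the group differences alone.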

How the data were processed

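RNA of 143B cells was sequenced in paired ends on an Illumina NovaSeq instrument. Per the study's methods and the submitters' processing notes, the authors used Trimmomatic (0.39) for trimming, FastQC (0.12.1) for read quality, STAR (2.7.11a) for alignment against GRCh38.p14, and RSEM (1.3.3) to estimate gene levels. The deposited values are expected counts per gene, not normalized, in 1 table of 6 libraries (OSC, non-OSC) and 1 of 9 (shCtrl, shPDK1#1, shPDK1#2). Strandedness and annotation release are not given in the sources used here. Columns named for 2D and 3D culture were taken as non-OSC and OSC, and 0 columns were left unmapped.

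Expected counts, of which 6.85% and 6.92% were not whole, were rounded. Each table was fitted on its own with edgeR (4.0.16, R 4.3.3): TMM scaling, filterByExpr, quasi-likelihood test, group as the only term, Benjamini-Hochberg adjustment over all genes tested and a threshold of 0.05. The 3 hairpin groups shared 1 fit. The scripts were tested on simulated data. Biological coefficients of variation were 0.0549 and 0.0482. Lengths, coordinates and overlaps came from GENCODE 44 on GRCh38 and promoters from RefSeq. Alternatives were scaling by total count, a replicate block, no filter, a minimum of 10 counts per library, DESeq2 (1.42.0), only the groups compared, and leaving out each library. Merged exon length was added after the data were seen.

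The named genes were the 10 members, PDK1, from each pathway list the called gene with the largest rise and fall in each comparison, CDK4, CDK6, CDK2, CCNE1, CCNE2, RBL1, RBL2, E2F1 and MKI67 by role, and for CCND1, CDKN1A, CDKN2B and RB1 the 3 most similar genes of at least 10 CPM on average. Members and lists were chosen with earlier results of these data known. Pathway genes listed for calls lost under other settings were picked by that loss.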

Additional observations from a re-analysis of the deposited data

Results flagged for a closer look

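For 4 members the 2 hairpins against PDK1 gave different levels in the test of shPDK1#2 against shPDK1#1, which is also the difference between their effects against the shared shCtrl. The log2 difference was -0.34 for CCND1 and -0.77 for CDKN1A, which fell with both hairpins. It was 0.32 for CCND2 and -0.61 for CDKN2D, neither of which passed against shCtrl with either hairpin. For CCND2 and CDKN2D the 2 hairpins lay on opposite sides of the shCtrl mean, at -0.11 and 0.20 for CCND2 and at 0.22 and -0.39 for CDKN2D. The gene that shares exon sequence with CCND2, ENSG00000285901, was at 7.17 CPM with shPDK1#1 and 10.1 CPM with shPDK1#2. PDK1 was at 62.0% of shCtrl with shPDK1#1 and 43.7% with shPDK1#2. The part of either in these differences was not tested.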

How the results depend on the processing

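With shPDK1#2 against shCtrl the number of members called rose from 2 to 4 with at least 10 counts required in every library, with the replicate block and with only the groups compared, and ranged from 2 to 4 when single libraries were left out, with 4 reached without shPDK1#2 replicate 2. The members added were CCND2, CDKN1C or CDKN2D, and the cause was not tested. With shPDK1#1 against shCtrl 446 genes passed, and 245 to 508 when single libraries were left out, with 270 without shCtrl replicate 1, 282 without shCtrl replicate 2 and 245 without shPDK1#1 replicate 3. DESeq2 called 8389, 408, 3107 and 1946 genes in the 4 comparisons.

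Direction changed when single libraries were left out for 4 differences, none of which had passed: CDKN1C (-0.373 to 0.0417) and CDKN2C (-0.143 to 0.0383) with shPDK1#1, CCND3 with shPDK1#2 (-0.0506 to 0.0301) and RB1 between the hairpins (-0.00716 to 0.0724). CCND1 in OSC against non-OSC passed with scaling by total count and with the replicate block. Every member called in the report was also called under each alternative that was run, which did not hold for every pathway gene. With shPDK1#1, E2F2 and CDK6 were called under 7 and 6 of 12. In OSCs, TFDP2 and CCNA2 were called under 6 of 11, and AMBRA1 and FBXO31 under 7. With shPDK1#2, CUL4A was called under 4 of 12, MCM7 under 5, DDB1 under 8, FOXM1 under 9 and RRM2 under 11. Between the hairpins, CCNA2 and TYMS were called under 5 of 12, DTL under 6, CDK4 under 7 and CCNE2 under 10. Deviations of same-numbered libraries correlated at r from -0.054 to 0.095, and those of differently numbered libraries at r from -0.076 to 0.046. The numbers were not taken to pair libraries, though these values cannot settle it. The replicate block gave 4 members called with shPDK1#2. Depth limits CDKN1C most, at 37 to 45 counts per non-OSC library, and bounds CDKN2B only by 3 counts.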
